A study of Mus musculus with 25 samples.

Results

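The TCF-1 sites found only in DN3 cells are 691 of the 3107 places where TCF-1 was called in both libraries of the DN3 cell line (22.2%). They were selected on measured peak calls: peaks of both DN3 TCF-1 lists were merged, regions held by both lists were kept, and regions that overlapped any of the 39489 TCF-1 peaks of induced fibroblasts were removed. The other 2416 DN3 sites (77.8%) overlapped a fibroblast TCF-1 peak and are called shared sites here. Counting every place called in either line, there were 40141 TCF-1 sites. What chose the members is TCF-1 presence in these 3 lists, so TCF-1 itself is described below and never tested.

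The series profiled 2 mouse cell lines by chromatin immunoprecipitation and sequencing, with 25 samples, and its stated subject is the part of TCF-1 in genome folding as T cells develop. Scid.adh cells, a thymic lymphoma line labelled as DN3 after the stage of T cell precursors it resembles, carried an empty vector (EV, TCF-1 present) or a TCF1 KO. NIH-3T3 fibroblasts, an embryonic connective tissue line, were untreated or TCF1 induced. Each DN3 group had 2 lists each for SMC1, CTCF, NIPBL and H3K27ac, the EV group also had the 2 TCF-1 lists, and fibroblasts had 2 CTCF lists and 1 SMC1 list per treatment plus the single TCF-1 list. Both EV and KO lists come from the same tumour line, and whether the KO is 1 clone is not given in the sources used here. No TCF-1 list of KO cells or of untreated fibroblasts was analysed, so these files give no check that TCF-1 was gone from the KO. The labels do not say that the lists come from separate cultures, so a p-value here speaks of variation among lists, and that variation may be technical.

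TCF-1, encoded by Tcf7, is a high mobility group protein of the TCF/LEF family that binds DNA and is switched on by Notch signalling when progenitors enter the thymus. It is known for opening chromatin at T cell genes and as a nuclear partner of beta-catenin in the Wnt pathway. SMC1 is a subunit of cohesin, the ring that extrudes chromatin loops, NIPBL loads that ring, CTCF stops it at loop anchors, and H3K27ac is an acetylation of histone H3 at active promoters and enhancers.

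DN3-only sites that lie on promoters can be shown as sequence, and 96 of 683 sites on chromosomes with windows in the table (14.1%) touched a RefSeq promoter window of 300 bases (250 before to 50 after a start, GRCm38.p6). Of shared sites, 1694 of 2375 (71.3%) did. The windows of Myb, Cxcr4, Notch1 and Themis are printed since the results return to them, and that of Exoc7 because it holds a TCF/LEF core inside the TCF-1 site. The Exoc7 window was chosen after its values were seen. Each is given 5′ to 3′ on the strand of its gene, and capitals mark every match to the motifs searched on both strands.
Myb, chr10:21160935-21161234, minus strand: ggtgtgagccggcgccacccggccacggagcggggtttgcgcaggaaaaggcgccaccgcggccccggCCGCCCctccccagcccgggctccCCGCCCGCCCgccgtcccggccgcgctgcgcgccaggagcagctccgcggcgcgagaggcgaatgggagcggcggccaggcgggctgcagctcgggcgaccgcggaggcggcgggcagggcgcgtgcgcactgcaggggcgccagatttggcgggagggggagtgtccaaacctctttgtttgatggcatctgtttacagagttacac
Cxcr4, chr1:128592250-128592549, minus strand: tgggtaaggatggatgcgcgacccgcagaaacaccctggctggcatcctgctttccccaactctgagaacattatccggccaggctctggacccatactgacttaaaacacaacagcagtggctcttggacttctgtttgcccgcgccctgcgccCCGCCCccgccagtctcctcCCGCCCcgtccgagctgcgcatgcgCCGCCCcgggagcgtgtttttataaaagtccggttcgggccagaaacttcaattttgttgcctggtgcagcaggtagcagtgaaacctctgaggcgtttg
Notch1, chr2:26503773-26504072, minus strand: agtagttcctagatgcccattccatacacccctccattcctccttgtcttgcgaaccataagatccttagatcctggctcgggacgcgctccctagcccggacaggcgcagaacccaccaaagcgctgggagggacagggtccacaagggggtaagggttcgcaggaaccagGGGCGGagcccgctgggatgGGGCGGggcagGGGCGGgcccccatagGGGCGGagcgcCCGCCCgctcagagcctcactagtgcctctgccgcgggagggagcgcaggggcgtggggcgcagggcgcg
Themis, chr10:28668145-28668444, plus strand: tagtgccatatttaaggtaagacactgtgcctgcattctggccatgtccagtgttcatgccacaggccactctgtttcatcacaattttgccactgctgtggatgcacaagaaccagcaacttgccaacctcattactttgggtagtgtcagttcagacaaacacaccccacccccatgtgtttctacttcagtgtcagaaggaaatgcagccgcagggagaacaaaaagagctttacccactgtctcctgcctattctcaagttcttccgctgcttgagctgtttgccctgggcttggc
Exoc7, chr11:116306685-116306984, minus strand: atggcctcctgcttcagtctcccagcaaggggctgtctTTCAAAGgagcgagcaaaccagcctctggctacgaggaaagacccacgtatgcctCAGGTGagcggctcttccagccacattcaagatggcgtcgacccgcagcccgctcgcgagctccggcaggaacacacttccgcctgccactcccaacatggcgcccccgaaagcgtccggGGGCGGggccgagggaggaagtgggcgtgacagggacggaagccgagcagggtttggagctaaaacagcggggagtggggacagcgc

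The motifs searched were the TCF/LEF core, spelled CTTTGAT or alternatively CTTTGAA, the RUNX motif TGTGGTT, the ETS motif CCGGAAG, the E box motif CAGGTG, the GC box motif GGGCGG, the box named CCAAT, and the cyclic AMP response element TGACGTCA. Other spellings of the TCF/LEF core were not searched, and the Myb window holds CTTTGTT in lower case. Capitals in Myb, Cxcr4 and Notch1 are GC boxes, and overlapping boxes run together in Myb. Themis held none of the motifs. In Exoc7 the TCF/LEF core CTTTGAA is on the other strand and so reads as its reverse complement, followed by 1 E box and 1 GC box. A TCF/LEF core in either searched spelling stood in 3.25% of the 123 windows that a DN3-only site touched. It stood in 5.57% of the 2245 windows touched by shared sites alone, and in 8.65% of all 32817 windows. Of the 4 windows with a core at DN3-only sites, 2 held it inside the site, and in the others it lay 36 and 63 bases outside. The E box was in 30.1%, 13.9% and 20.2% of these windows, and the ETS motif in 13.8%, 25.4% and 8.86%. GC boxes were about as frequent in both TCF-1 sets, 74.0% and 73.5%, against 35.6% of all windows. The median GC content was 63.7%, 64.0% and 52.7%. These matches are descriptions of letters: they do not mark bound sites, and several windows of 1 gene overlap.

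Most DN3-only sites lay away from the ends of genes, where an end is either boundary of the gene, its start included. A protein-coding gene end was within 1 kb of 151 members (21.9%) against 1939 shared sites (80.3%), and within 5 kb of 37.0% against 89.3%. With chromosome 18 left out, a RefSeq transcription start was within 1 kb of 19.6% of members and 76.9% of shared sites. Of the members, 404 (58.5%) overlapped a gene body, 273 of them with no gene end within 1 kb. A further 185 members (26.8%) were more than 10 kb from any gene body, against 3.56% of shared sites, and 77 (11.1%) were more than 50 kb away, against 0.745%. Removing members within 1 kb of a fibroblast TCF-1 peak left 642, with a gene end near 18.7%.

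**Figure D1:**
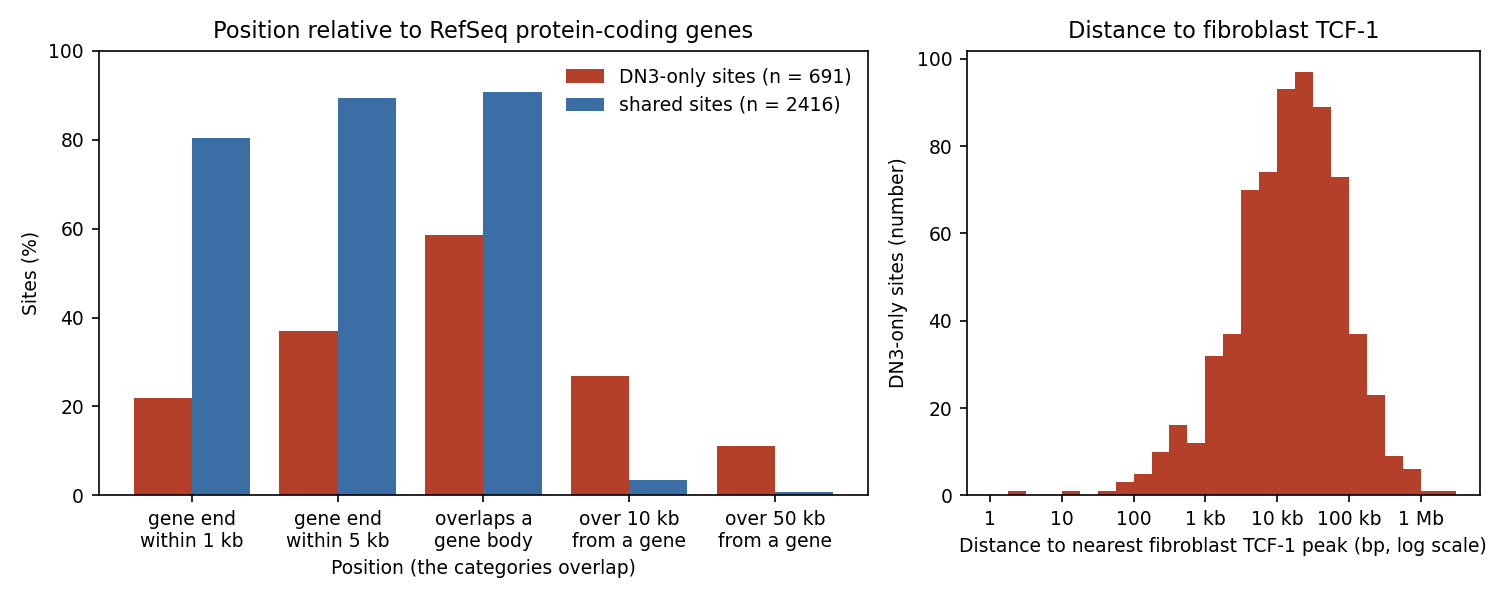
Left, percent of the 691 DN3-only and 2416 shared TCF-1 sites in overlapping classes of position (bars, from 0). Right, number of DN3-only sites by distance to the nearest fibroblast TCF-1 peak in bp on a log scale, with a median of 16374 bp. Gene ends were near 21.9% of DN3-only and 80.3% of shared sites.

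The median DN3-only site was 16374 bp from the nearest fibroblast TCF-1 peak, 49 members (7.09%) had such a peak within 1 kb and 77 were more than 100 kb from any. Members just inside the rule were sites at Letm1, 2 bp from a fibroblast peak, Ppp2r5a, 16 bp, and Atp23, 42 bp. Just outside it, shared sites at Nr3c2, Gm44812 and Mgat3 overlapped a fibroblast peak by 4, 10 and 11 bp. The members were narrower than shared sites, with a median of 371 bp (range 213 to 1406) against 503 bp (205 to 2460). Their strength, the lower of the 2 percentile ranks of peak width in the DN3 TCF-1 lists, had a median of 33.0 against 58.7. Another DN3-only site lay within 50 kb of 222 members (32.1%).

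DN3-only sites were crowded on 3 chromosomes. Chromosome 10 held 136 members (19.7%), chromosome 1 held 119 (17.2%) and chromosome 15 held 76 (11.0%), together 331 (47.9%). The same chromosomes held 26.1% of shared sites, 17.9% of fibroblast TCF-1 peaks and 13.6% of protein-coding genes. On chromosome 1, 109 of the 119 members lay beyond 120 Mb, a boundary chosen after the positions were seen. Both DN3 TCF-1 lists shared this pattern as a whole, with 32.5% and 33.9% of their peaks on the 3 chromosomes. SMC1 lists had 21.9% and 20.9% in EV and 20.3% and 20.0% in KO, and the CTCF, NIPBL and H3K27ac lists of DN3 cells had 17.2% to 18.6%. Without them 360 members remained. Input libraries and the copy number of these chromosomes were not analysed here, and their part in the results was not tested.

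**Figure D2:**
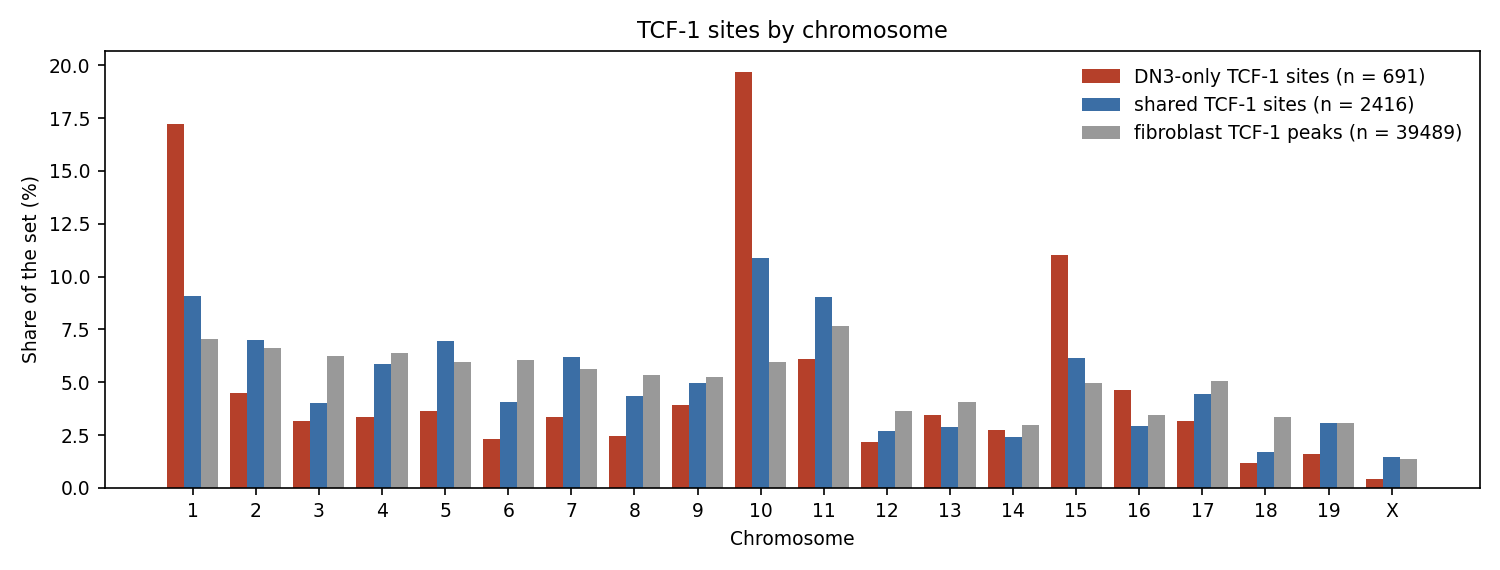
Share of each set, in percent, on every chromosome, for DN3-only TCF-1 sites (n = 691), shared TCF-1 sites (n = 2416) and fibroblast TCF-1 peaks (n = 39489). DN3-only sites stand highest on chromosomes 10, 1 and 15, with 19.7%, 17.2% and 11.0% of their number.

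In DN3 cells almost every member carried cohesin and acetylated chromatin. SMC1 peaks overlapped 96.8% and 96.8% of members in the EV lists and 94.5% and 95.2% in the KO lists. H3K27ac was called at 90.7% and 90.7% in EV and at 90.6% and 90.7% in KO. NIPBL was called at 52.0% and 73.5% in EV and at 88.0% and 68.5% in KO, and these lists differed most in length, from 9206 to 23951 peaks. CTCF was called at 34.7% and 49.8% in EV and at 47.3% and 37.6% in KO. SMC1 with H3K27ac but neither of the others in both EV lists was the most frequent pattern, with 211 members (30.5%), against 309 shared sites (12.8%). All 4 together were found at 136 members (19.7%), against 934 shared sites (38.7%).

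Each mark was called less often at DN3-only than at shared sites, in every DN3 list. The mean difference over 4 lists was 3.59 points lower for SMC1 (95.8% ± 1.17 against 99.4% ± 0.406, SD, n = 4), where an exact sign-flip test gave its smallest possible p of 0.13. H3K27ac stood at 90.7% ± 0.0724 against 98.8% ± 0.0521, NIPBL at 70.5% ± 14.9 against 90.2% ± 9.31 and CTCF at 42.4% ± 7.31 against 60.7% ± 9.09 (SD, n = 4 lists, exact p = 0.13 each). The test cannot go below 0.13, so none of these differences can pass a threshold of 0.05. Without TCF-1 replicate 1 or 2 the differences were larger, at -17.5 and -13.7 points for SMC1 and -20.7 and -17.9 for H3K27ac. They were then -37.3 and -34.3 points for NIPBL and -27.6 and -23.3 for CTCF. At gene ends the difference was -7.11 points for NIPBL and -4.02 for H3K27ac, against -15.8 and -5.61 elsewhere. The CTCF difference changed sign between these classes. Where a gene end was within 1 kb, CTCF was called at 61.8% ± 9.93 of 151 members and 61.2% ± 9.30 of 1939 shared sites (exact p = 0.625, n = 4 lists), and elsewhere at 36.9% ± 6.81 of 540 members and 58.6% ± 8.31 of 477 shared sites (exact p = 0.13). By width, the CTCF difference was -7.52 points at sites at or above the median of all DN3 sites, 467 bp, and -20.6 at narrower ones, and members were narrower than shared sites.

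**Figure D3:**
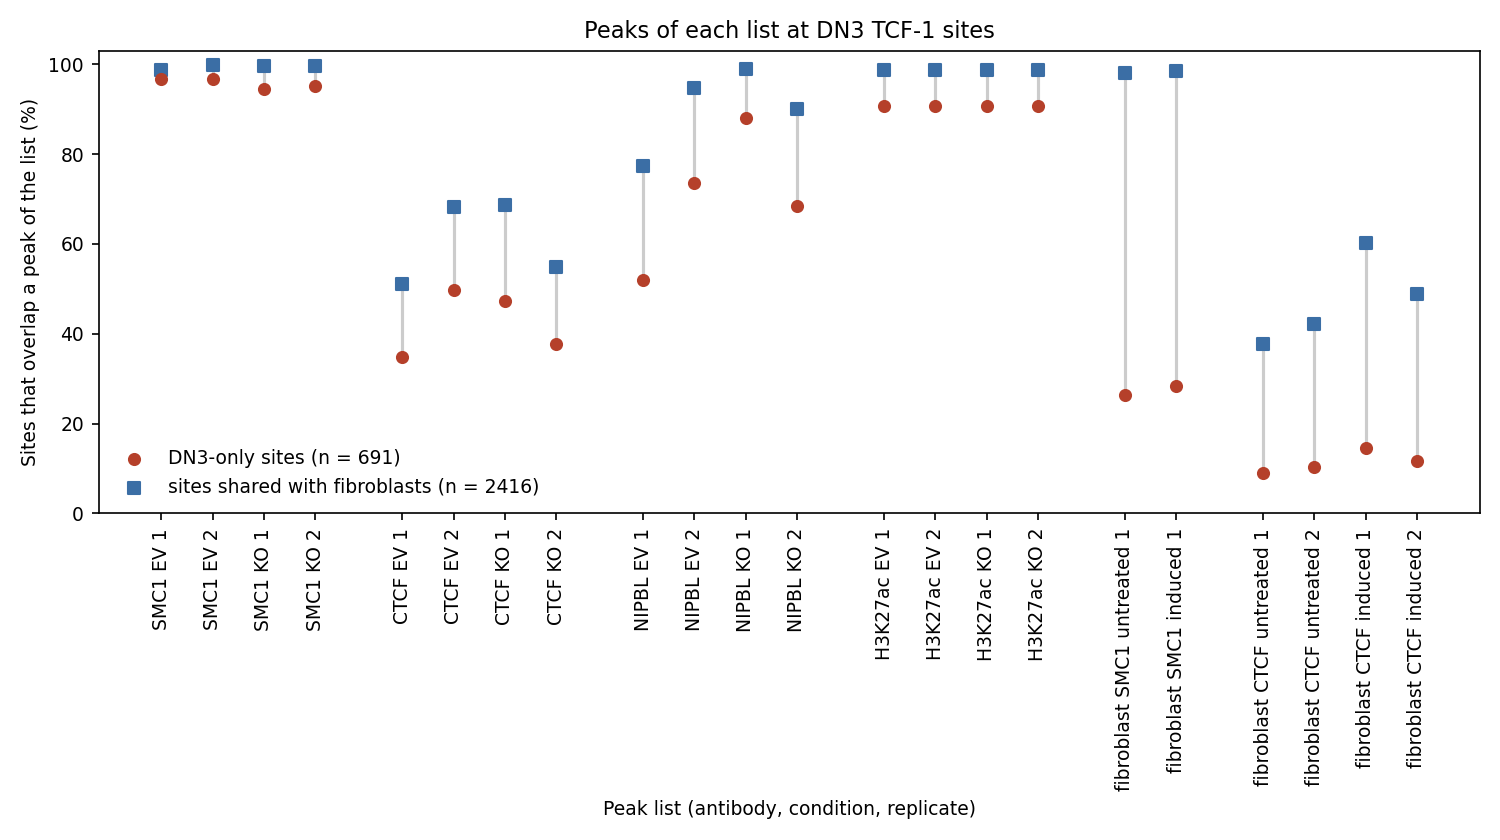
Percent of DN3-only (circles) and shared (squares) TCF-1 sites that overlap a peak of each list, by antibody, condition and replicate. The circles lie below the squares in all 22 lists, by 2.02 to 71.8 points.

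With 2 EV against 2 KO lists the test cannot reach a p under 0.33, so no difference between them could pass a threshold of 0.05. The SMC1 share was 96.8% in both EV lists against 94.9% ± 0.512 in KO (n = 2 lists each), a difference of 1.95 points in which the groups did not overlap (exact permutation p = 0.33, the smallest possible). Without chromosomes 1, 10 and 15 it was 0.833 points. It was 0.423 and 0.668 points without TCF-1 replicate 1 or 2, 0.205 with sites of either TCF-1 list and 0.507 with SMC1 peaks at or above their list's median. In each of these 5 settings the EV and KO lists were no longer apart (exact permutation p = 0.667 or 1.00, n = 2 each). The KO SMC1 lists held more peaks in all (88886 and 96416) than the EV lists (70438 and 77587). CTCF was at 42.3% ± 10.6 in EV and 42.5% ± 6.86 in KO (exact permutation p = 1.00, n = 2 each). NIPBL was at 62.7% ± 15.2 in EV and 78.2% ± 13.8 in KO (exact permutation p = 0.667, n = 2 each), with overlapping groups. This NIPBL difference of -15.5 points shrank to -4.70 without EV replicate 1, the shortest list, and to -5.72 without KO replicate 1, the longest. With lists of equal length it was -5.28, and with peaks at or above their list's median -23.4, and in both the groups did not overlap (exact permutation p = 0.33, n = 2 each). H3K27ac was at 90.7% in both conditions, a difference of 0.0724 points (exact permutation p = 1.00, n = 2 each).

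A small set of members had SMC1 in both EV lists and in neither KO list. There were 10 (1.45%), while 11 of all 3107 DN3 TCF-1 sites did (0.354%), so only 1 of the 11 was a shared site. No member had SMC1 in both KO lists and neither EV list, and 0% of all DN3 sites did. All 3107 sites were chosen from TCF-1 lists of EV cells, so no KO list could add a site. What this choice did to the EV and KO counts was not tested. With single SMC1 lists left out these counts ran from 13 to 15 and from 0 to 4, and without chromosomes 1, 10 and 15 the 10 fell to 3. The 3 were sites at Lef1, Srebf1 and Rbpj. The sites beyond the strongest 6, among them those at Rbpj and Mndal, were named after their values were seen. Near Lef1, which encodes the closest relative of TCF-1, the site lay 4025 bp from the gene (chromosome 3, 131105919 to 131106271). Its SMC1 peaks were 323 and 528 bp wide in EV and absent in KO, its H3K27ac peaks were 1254 and 1534 bp in EV and absent in KO, and no DN3 list held CTCF or NIPBL there. The site inside Srebf1, a regulator of lipid synthesis (chromosome 11, 60210281 to 60210619), had SMC1 peaks of 353 and 646 bp, NIPBL peaks of 186 and 199 bp and H3K27ac peaks of 6196 and 3371 bp in EV, and no peak of any of these in KO. It was the only member with NIPBL in both EV lists alone (0.145%, background 0.0966%). This count was 7 without EV NIPBL replicate 1, 23 without KO NIPBL replicate 1, 3 without EV NIPBL replicate 2 and 12 with lists of equal length. The site closest to Rbpj, the DNA-binding partner of Notch, was 48108 bp from the gene (chromosome 5, 53507394 to 53507670). Its SMC1 peaks were 3158 and 2467 bp wide in EV and absent in KO, with no other mark in any DN3 list.

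The other 7 such sites were on chromosomes 1 and 10. At Lgr5, a receptor for R-spondins and a Wnt target (chromosome 10, 115586407 to 115586789), SMC1 peaks were 712 and 885 bp wide in EV and absent in KO, and no DN3 list had CTCF, NIPBL or H3K27ac there. The remaining sites were at 3 places in Ifi202b, at 2 in Catspere1 and 9389 bp from Mndal. Ifi202b and Mndal belong to the interferon-inducible Ifi200 family, whose members are near-identical in places, so reads could be shared between copies and these counts are uncertain. Ifi202b had 7 members within 10 kb, the largest number of any gene, and no shared site and no fibroblast TCF-1 peak. Its strongest member (chromosome 1, 173973134 to 173973980) had TCF-1 peaks of 611 and 700 bp, an SMC1 peak of 249 bp in EV replicate 1, and no other mark in any DN3 list.

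H3K27ac was in both EV lists alone at 8 members (1.16%, background 0.386%) and in both KO lists alone at 7 (1.01%, background 0.354%). Besides Lef1 and Srebf1, the strongest EV sites were nearest to Lmnb2, which encodes a nuclear lamin, Nudt4, Lmo7 and Smr3a. Of the 7 KO sites, the strongest were nearest to Pmel, Selenbp1, Ankrd50, Lpp, Pigr and Myc. Their TCF-1 strength percentiles ran from 59.4 at Pmel down to 3.42 at Myc. The site nearest to Myc, the growth regulator, lay 222012 bp from the gene (chromosome 15, 62212374 to 62212693). Its TCF-1 peaks were 200 and 320 bp wide, and its strength equalled the lowest of any member. It had no H3K27ac peak in EV and peaks of 2890 and 2264 bp in KO, with SMC1 peaks of 811 and 877 bp in EV and 1691 and 2265 bp in KO. Leaving out any 1 H3K27ac list gave 9 to 11 and 8 to 10 sites, and without chromosomes 1, 10 and 15 there were 4 of each.

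CTCF was in both EV lists alone at 12 members (1.74%, background 1.35%) and in both KO lists alone at 11 (1.59%, background 1.61%), shares near those of all DN3 TCF-1 sites. Without chromosomes 1, 10 and 15 there were 4 and 6. The promoter site of Themis, whose product acts in thymocyte selection (chromosome 10, 28668136 to 28668659), had CTCF peaks of 200 and 520 bp in EV and none in KO. SMC1, NIPBL and H3K27ac were called there in all 4 DN3 lists. In the KO group alone, CTCF was called at Zrsr1, Capsl, Atp5d, Ago2 and Fcho1 among others. These counts rested on single lists: without EV CTCF replicate 1, EV replicate 2 or KO replicate 1 the EV count was 62, 19 or 31. Without EV replicate 2 or KO replicate 2 the KO count was 48 or 44, and without EV replicate 1 or KO replicate 1 it was 17 or 20. NIPBL was in both KO lists alone at 33 members (4.78%, background 1.64%), but at 145 without EV NIPBL replicate 2 and at 95 without KO NIPBL replicate 2. Without chromosomes 1, 10 and 15 it was 16. Among the strongest of these sites were those at BC034090, Slc16a10, Slc22a3, L3mbtl3 and Ptprk, all with SMC1 and H3K27ac in all 4 lists.

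Acetylated domains were broader at DN3-only sites. H3K27ac peaks that overlapped members had a median width of 6498 and 6333 bp in EV and 6560 and 6427 bp in KO, against 3016, 2986, 2989 and 2986 bp at shared sites. All peaks of these lists had medians of 1339 to 1564 bp. The ranges of the 4 lists did not overlap between members and shared sites. Away from gene ends the medians were 7147 to 7573 bp for members and 3435 to 3791 bp for shared sites. The −log10 q-value that the authors gave each peak ranked these broad peaks lower: members' peaks had a median percentile of 77.1 to 79.3 within their list, shared sites' peaks 91.7 to 92.8. SMC1 peaks at members were wide in their lists too, with medians of 1136 and 935 bp in EV and 1410 and 1393 bp in KO, against 1007, 1093, 1248 and 1304 bp at shared sites and 380 to 407 bp over all peaks. A wide peak is more likely to overlap any site, and whether this acts equally on both sets of sites was not tested.

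**Figure D4:**
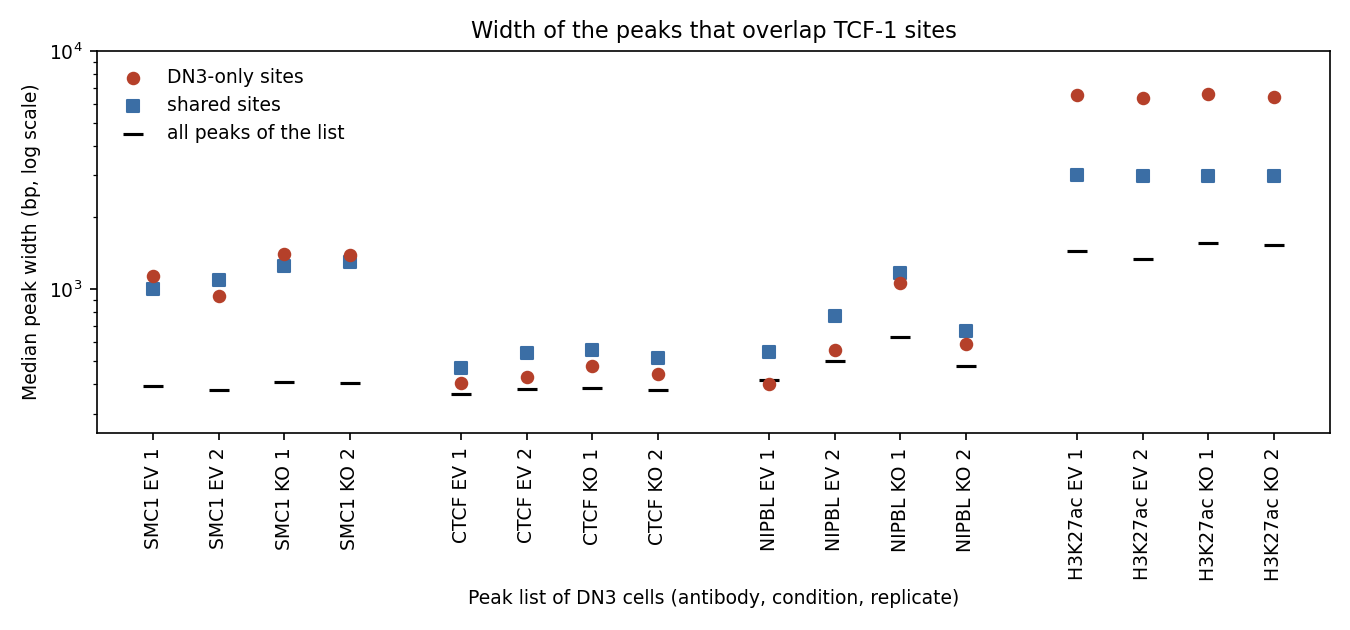
Median width, in bp on a log scale, of the peaks that overlap DN3-only sites (circles) and shared sites (squares), and of all peaks of the list (bars), for the 16 DN3 lists by antibody, condition and replicate. H3K27ac peaks at DN3-only sites have medians of 6333 to 6560 bp, above 2986 to 3016 bp at shared sites in every list.

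Fibroblasts had cohesin or CTCF at a minority of these places. SMC1 peaks overlapped 26.3% of members in untreated and 28.4% in induced fibroblasts, against 98.1% and 98.5% of shared sites, with 1 list per treatment and no replicate check. Where a gene end was within 1 kb, SMC1 was at 60.3% of members untreated and 63.6% induced, and elsewhere at 16.9% and 18.5%. CTCF was at 8.97% and 10.4% of members untreated and at 14.5% and 11.7% induced, against 37.7%, 42.1%, 60.1% and 48.8% of shared sites. The induced minus untreated difference in CTCF at members was 3.40 points (13.1% ± 1.94 against 9.70% ± 1.02, exact permutation p = 0.33, n = 2 lists each, the smallest possible p). In all, 469 members (67.9%) were in none of the 6 fibroblast lists, which was so for 28 shared sites (1.16%). With a gene end within 1 kb this was 52 of 151 members (34.4%), and without one 417 of 540 (77.2%). CTCF was called in all 4 DN3 lists and in no fibroblast list at 100 members (14.5%), against 75 shared sites (3.10%). Since these fibroblasts are the cells in which the rule looked for TCF-1, the contrast with shared sites is given as a description.

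Protein-coding genes with a member within 10 kb of the gene body numbered 567 of 21887 (2.59%), or 321 without chromosomes 1, 10 and 15. Of the 567, 162 (28.6%) also had a shared site, against 15.6% of all genes, and 452 (79.7%) had some fibroblast TCF-1 peak within 10 kb, against 61.6% of all genes. Regulators of the T lineage had a member at 7 of 20 genes (35.0%), T cell receptor and signalling genes at 4 of 26 (15.4%) and cytokine and homing receptors at 3 of 15 (20.0%). Shared sites were at 4, 2 and 0 genes of these lists. Wnt feedback and target genes had a member at 5 of 16 (31.2%) and Notch pathway genes at 2 of 12 (16.7%). Natural killer and innate lymphoid genes had a member at 2 of 12 (16.7%). Survival and cell cycle genes had a member at 2 of 16 (12.5%) and myeloid genes at 1 of 12 (8.33%). In the same order, a shared site was at 8, 2, 1, 6 and 1 genes of these lists. More genes of the Wnt list and of the survival and cell cycle list thus had a shared site than a member. No member was near any of 12 B lineage, 22 fibroblast, 13 cohesin and CTCF or 14 housekeeping genes, of which 3, 0, 4 and 10 had a shared site. The lists were drawn up with earlier results of these data known, so the counts describe the lists. The label of the DN3 cells was checked by H3K27ac, and all 10 T lineage marker genes had peaks in each list. Of 8 fibroblast markers, Col1a1, Col1a2, Col3a1, Fn1, Sparc, Postn and Prrx1 had none, but 1 had a peak in every list. Of 4 B lineage markers 1 had a peak in EV and none in KO, and of 4 myeloid markers 1 had a peak in every list.

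Among the T lineage regulators, the members at Ikzf1, Myb, Bcl11b and within Lef1 were in all 16 DN3 lists and in no fibroblast list. At Ikzf1, which encodes the lymphoid factor Ikaros, the member covered the whole RefSeq promoter window (chromosome 11, 11685532 to 11686058). SMC1 peaks there were 3279 and 2957 bp wide in EV and 3271 and 2814 bp in KO, with overlapping groups. At Myb, a factor of haematopoietic progenitors, the member (chromosome 10, 21160646 to 21161336) spanned the whole window printed above and had TCF-1 peaks of 619 and 581 bp. SMC1 peaks there were 2522 and 3961 bp in EV and 5230 and 4805 bp in KO, and NIPBL peaks 1624 and 3158 bp in EV and 3639 and 3486 bp in KO, wider in both KO lists. At Bcl11b, the factor that commits cells to the T lineage, the member was within the gene (chromosome 12, 107927962 to 107928379). SMC1 peaks were 1642 and 3577 bp in EV and 9195 and 7271 bp in KO. With 2 lists against 2 these widths can reach no p under 0.33. Over all members, median SMC1 widths were also larger in KO, at 1410 and 1393 bp against 1136 and 935 bp in EV. Median NIPBL widths were 1063 and 588 bp in KO against 400 and 555 bp in EV. At shared sites the SMC1 medians were larger in KO as well, at 1248 and 1304 bp against 1007 and 1093 bp in EV. NIPBL medians there overlapped, at 1171 and 666 bp in KO against 548 and 772 bp in EV.

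Tcf7 itself had a member 917 bp from the gene (chromosome 11, 52284301 to 52284652) with TCF-1 peaks of 254 and 352 bp. It was 1027 bp from the nearest of 7 fibroblast TCF-1 peaks within 10 kb of that gene, and the gene had 1 shared site as well. SMC1, NIPBL and H3K27ac were called there in all 4 DN3 lists and CTCF in KO replicate 1 only. A stronger member, with TCF-1 peaks of 815 and 555 bp, lay 30683 bp from Tcf7 (chromosome 11, 52314067 to 52314893) and was in all 16 DN3 lists. Ikzf3, which encodes Aiolos, had 2 members within the gene and Zbtb7b, which encodes the CD4 lineage factor ThPOK, had 1, all with SMC1 and H3K27ac in the 4 DN3 lists.

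At receptor and signalling genes, members were within Cd247, the zeta chain of the T cell receptor complex and Fyn, a Src family kinase, and at the start of Themis. Ptprc, which encodes the phosphatase CD45, had 3 members, the most of any listed gene. All of these sites had SMC1 and H3K27ac in the 4 DN3 lists and no peak in fibroblasts. All 4 genes are on chromosomes 1 and 10. Cxcr4, the receptor that retains progenitors in marrow and thymus, had 2 members, of which the larger (chromosome 1, 128592107 to 128592772) covered the window printed above and was in all 16 DN3 lists. Its SMC1 peak was 3641 and 3425 bp wide in EV and 9248 and 5504 bp in KO. Ccr9, a thymus homing receptor, had a member 5919 bp away. The member near Flt3, a receptor of early progenitors, was 7053 bp from that gene and within 1 kb of another gene's end, and was the only listed T cell site in all 6 fibroblast lists.

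Notch1, the receptor that drives T cell commitment, had a member at its promoter (chromosome 2, 26503568 to 26503997) in all 16 DN3 lists and in both fibroblast SMC1 lists. NIPBL peaks there were 298 and 1161 bp wide in EV and 3680 and 2214 bp in KO. SMC1 peaks were 1922 and 2445 bp against 3346 and 3307 bp. Both marks were wider in each KO list, as were their medians over all members and, for SMC1, over shared sites. The H3K27ac peak over the Notch1 site was 22843 and 22682 bp wide in EV and 68377 and 65976 bp in KO. Dtx1, a Notch target, had a member within the gene in all 16 DN3 lists. Of the Wnt list, Znrf3, a ligase that removes Frizzled receptors, and Ccn4, a secreted target, had members in the gene, and that at Ccn4 was in all 22 lists. Ccnd3, encoding cyclin D3, had a member within the gene. Another member lay 7615 bp from Cdk4, the partner kinase of cyclin D3. That site overlapped an end of a different gene, Agap2, and was 595 bp from a fibroblast TCF-1 peak. Among genes of other lineages, the member in Spi1, which encodes PU.1, had SMC1 in 4 lists and neither CTCF nor NIPBL in any. Tbx21, which encodes T-bet, had a member at its start and Rora 1 within the gene, both with NIPBL in the 4 DN3 lists. The H3K27ac peak at Tbx21 was 24338 and 24656 bp wide in EV and 3771 and 3657 bp in KO.

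**Figure D5:**
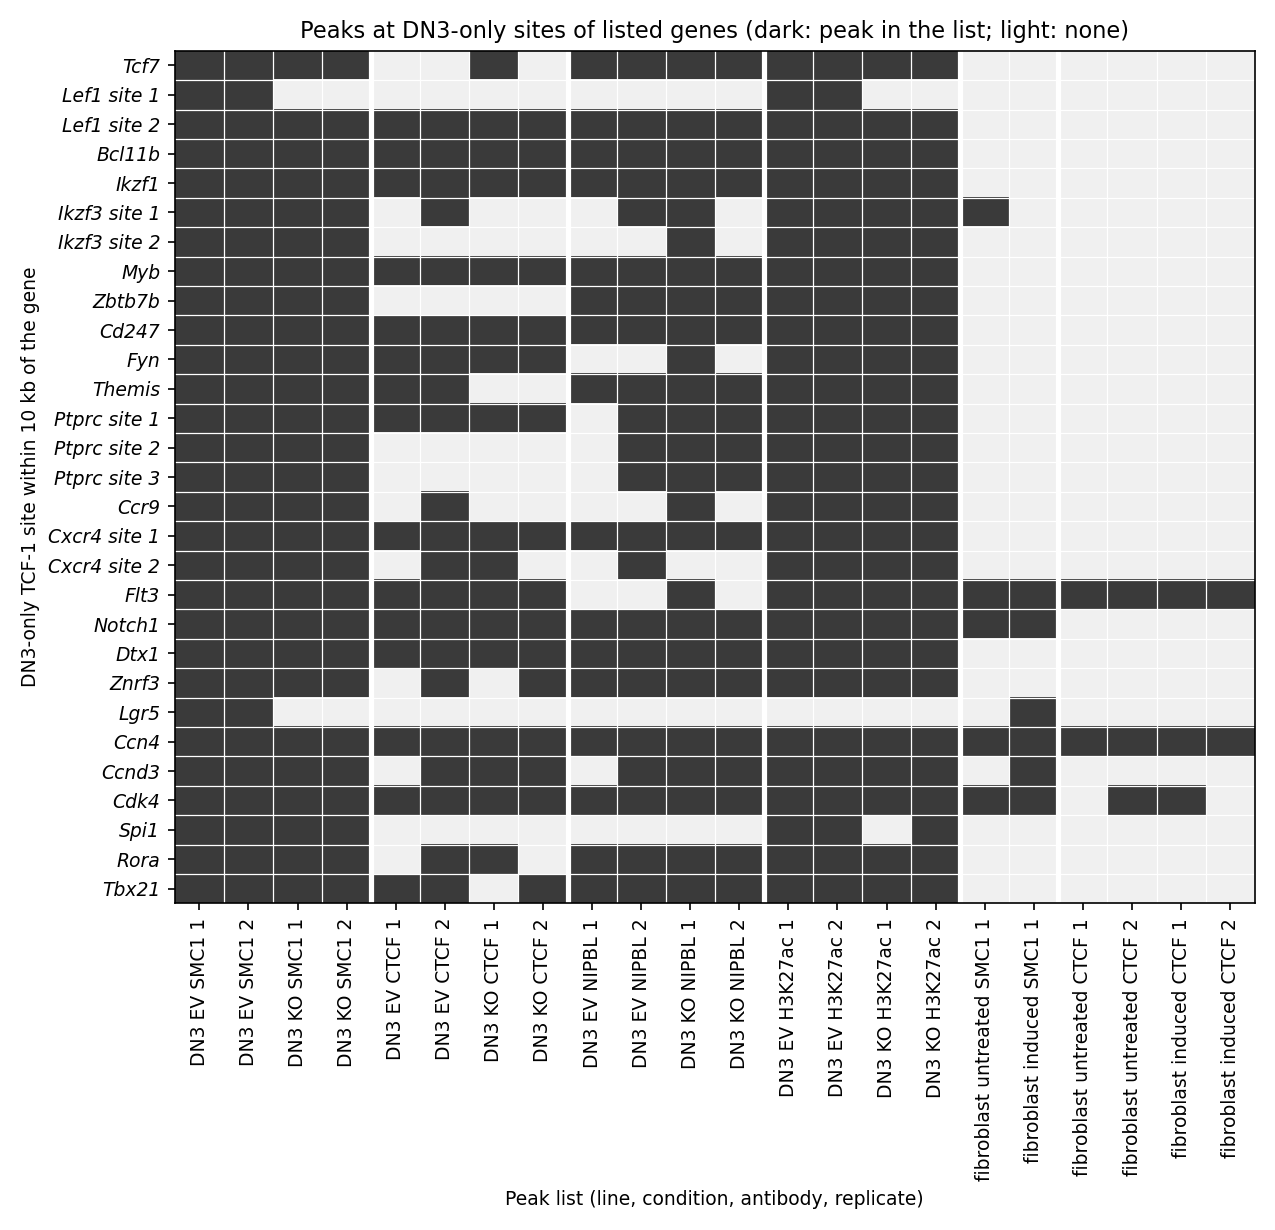
Presence (dark) or absence (light) of a peak of each of 22 lists at the 29 DN3-only sites within 10 kb of a listed gene, 1 site per row, with DN3 lists left and fibroblast lists right. SMC1 is in all 4 DN3 lists at 27 sites and H3K27ac at 26, and 22 sites are in no fibroblast list.

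Together the lists had 29 members at 24 genes, and 22 of these were in no fibroblast list. SMC1 was in all 4 DN3 lists at 27, H3K27ac at 26, NIPBL at 16 and CTCF at 13, and 10 were in all 16 DN3 lists. A gene end lay within 1 kb of 11, and 12 were on chromosomes 1, 10 and 15.

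The strongest member by TCF-1 peak width (chromosome 1, 166048264 to 166049420) had peaks of 1038 and 1049 bp. Its nearest protein-coding gene, 45514 bp away, was Pou2f1, which encodes the octamer factor Oct-1. The member also covered whole RefSeq promoter windows of Gm33224 and Gm39693, which are not among the protein-coding genes used here. Next were members at Kif21b, a kinesin (818 and 781 bp), Cd24a, a surface protein of immature thymocytes (769 and 837 bp), Arhgap20 (1238 and 736 bp) and Zc3h10 (777 and 730 bp). Members near Slc1a3, Tle5, Pcbp1, E2f7, Dapk3, Ifi202b and Zrsr1 followed, with E2f7 a repressor of the cell cycle and Tle5 a relative of the Groucho corepressors that bind TCF proteins. SMC1 was called in all 4 DN3 lists at 10 of these 12, the exceptions being Pcbp1 with none and Ifi202b. Among the 12, the member at Cd24a was 428 bp from a fibroblast TCF-1 peak and that at Zrsr1 340 bp. The Cd24a member was also in both fibroblast SMC1 lists and in every fibroblast CTCF list but untreated replicate 1. After Ifi202b, the genes with most members were Esrrg with 5, Catspere1 with 4, and Ccdc162, Gpr25, Itln1, Mtss1, Ostm1, Ppm1h, Ptpn7, Ptprc, Ptprk, Scml4 and Smad3 with 3 each. Of these 14 genes, 13 are on chromosomes 1, 10 and 15, the exception being Smad3.

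Both TCF-1 lists had to hold a member, and the set is sensitive to that. Either DN3 TCF-1 list alone gave 1647 or 2008 sites without a fibroblast peak, and the 2 lists together 2932. Only 76.1% of the 2932 had SMC1 and 74.1% H3K27ac in both EV lists, against 95.5% and 90.2% of the 691. The absence of TCF-1 in fibroblasts rests on 1 list, and read depth is unknown, so a missing peak is only a peak that was not called.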

How the data were processed

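The deposited files are peak lists of 25 ChIP-seq samples. Per the submitters' processing notes, Bowtie2, MACS2, bedtools and mm10 were used; versions, settings and controls were not given there. The authors' H3K27ac and NIPBL lists give each peak a score, a fold enrichment and −log10 p- and q-values; the other deposited lists give positions only. Read depth is unknown.

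DN3 TCF-1 peaks were merged with a gap of 0 bp, and a site was in a list when they overlapped by at least 1 bp. Genes are 21887 RefSeq protein-coding genes, and all 190 entries of 12 lists matched; 1 further listed gene is not reported here. Shares were compared over lists, with exact permutation tests for 2 against 2 (smallest p 0.33) and exact sign-flip tests over 4 lists (smallest p 0.13), tested on simulated data. Named sites were the strongest 12, the genes with most members, listed genes, the strongest 6 per direction between EV and KO, the strongest 8 with and without a gene end, and those nearest the rule's limit. The members and lists were chosen with earlier results of these data known. Python 3.11.15, numpy 2.4.6, scipy 1.17.1 and matplotlib 3.10.9 were used.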

Additional observations from a re-analysis of the deposited data

How the results depend on the processing

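The EV minus KO difference in CTCF had no stable sign: against -0.217 points it was 0.868 with at least 50% of the site overlapped, 3.98 with lists of equal length, 0.219 with peaks merged across 500 bp, 0.156 with no fibroblast peak within 1 kb, and -7.74 to 7.31 with single lists left out. H3K27ac gave -0.0779 with no fibroblast peak within 1 kb. CTCF at DN3-only minus shared sites gave 0.602 with gene ends only. With the replicate number as a block the differences were 1.95 for SMC1, -0.217 for CTCF, -15.5 for NIPBL, 0.0724 for H3K27ac and 3.40 for fibroblast CTCF (exact permutation p = 0.50, 1.00, 1.00, 1.00 and 0.50, n = 2 pairs). The numbers pair no samples by the labels, and same-numbered lists had correlated deviations of 0.0655, -0.104, -0.0702, 0.236 and -0.113. A crossed pairing for CTCF, added after seeing the data, changed no call.

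Counts of sites in 1 condition alone moved most. They are given in the order SMC1 EV and KO, CTCF EV and KO, NIPBL EV and KO, H3K27ac EV and KO. Sites in either TCF-1 list gave 34, 24, 24, 29, 2, 131, 43 and 32. Leaving out single lists, TCF-1 lists included, gave 13 to 24, 0 to 14, 16 to 62, 15 to 48, 1 to 23, 34 to 145, 9 to 28 and 8 to 21. Without chromosomes 1, 10 and 15, added after seeing the data, the counts that moved were SMC1 EV 3, CTCF 4 and 6, NIPBL KO 16 and H3K27ac 4 and 4. Peaks at or above their list's median gave SMC1 KO 4, CTCF EV 6, NIPBL 0 and 64, and H3K27ac 15 and 11. An overlap of 50% gave SMC1 KO 1 and NIPBL EV 2, and lists of equal length gave CTCF KO 6 and NIPBL EV 12. The number of members was 2932 in either list, 1647 to 2008 with 1 TCF-1 list and 360 without the 3 chromosomes. Genes numbered 1882, 1203 to 1371 and 321 under these, and 358 by gene body alone. The gene end share was 18.7% with no fibroblast peak within 1 kb, 18.3% in either list, 18.4% to 20.2% with 1 list and 37.0% within 5 kb. The share in no fibroblast list was 71.5% with 50% overlap, 73.2% with peaks above the median, 72.3% with no fibroblast peak within 1 kb and 63.1% to 69.6% with lists left out.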
